A study of Drosophila melanogaster with 7 samples.

Results

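Glutathione S-transferases (GSTs) are the enzymes that attach the tripeptide glutathione to reactive or foreign compounds. The members described here are the genes that the deposited gene table names Gst followed by a class letter (D, E, O, S, T or Z) and a number. There were 35 such genes among 24204 annotated features: 11 of class D (delta), 14 of class E (epsilon), 3 of class O (omega), 1 of class S (sigma), 4 of class T (theta) and 2 of class Z (zeta). The study dissected midguts, the digesting and absorbing part of the gut, from Drosophila melanogaster virgin females (strain sg-Gal4,UAS-GFP) kept in closed cabinets at 10%, 20% or 40% oxygen, and sequenced gut RNA taken on day 53. All flies carried that strain's genotype, so no group lacks it. There were 3 libraries at 10%, 3 at 20% and 1 at 40%. Batch 1 holds replicates 1 and 2 of the 10% and 20% groups, and batch 2 holds replicate 3 of each together with the single 40% library. Nothing in the labels ties replicates to different animals, so every p-value reflects the scatter among these libraries alone, and that scatter may be technical.

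A GST binds glutathione in one pocket and a greasy, electrophilic partner in another, and the conjugate is then pumped out of the cell and broken down. In insects the delta and epsilon classes have expanded into tandem gene clusters and are known for insecticide resistance and for removal of lipid peroxidation products such as 4-hydroxynonenal. Omega GSTs use a cysteine in place of the usual serine or tyrosine and reduce dehydroascorbate and glutathione-bound proteins, and zeta GSTs isomerise maleylacetoacetate in tyrosine breakdown. The gut, with the Malpighian tubules and fat body, is a main site of this detoxification in flies, and several of these genes, GstD1 among them, are known targets of the stress-responsive factor CncC, which Keap1 holds in check.

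Most of the genes lie in tight groups (assembly BDGP6.54). On 3R, 10 delta genes follow each other without another protein-coding gene between them, from 12364776 to 12380815, in the order GstD10, GstD9, GstD1 to GstD8, with GstD11 just beyond, from 12383336 to 12385624. On 2R, 10 epsilon genes, GstE10 and then GstE1 to GstE9, lie between 18396638 and 18409835. GstT1 and GstT2 are neighbours on 2R, GstO2 and GstO1 on 3L, and GstZ1 and GstZ2 on 3R. GstE11, GstE12, GstE13, GstE14 and GstS1 each lie alone on 2R, and GstT3 and GstT4 lie apart from each other on X. Since the tandem genes are related copies, the authors' transcript quantification could divide reads that fit several of them, and levels of single cluster members carry that uncertainty. Exons of GstE9 overlap those of imd on the opposite strand, and the same holds for GstE10 with GstE1, GstE13 with CG18659, GstT2 with CG12926, GstE12 with CG3894 and GstO2 with se. The libraries are strand-specific per the labels, but the sources used here do not say whether the counting used strand.

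Library totals were 19.22 to 22.22 M counts (M for mega). Transcripts of the mitochondrial genome took 4.1% to 4.68% of counts in the batch 1 libraries. In batch 2 they took 61.04%, 63.95% and 71.03% at 10%, 20% and 40% oxygen, which left 20.64 to 21.22 M other counts in batch 1 and 7.49, 7.0 and 5.73 M in the 3 libraries of batch 2. CPM here and below is counts per M counts after scaling by TMM, a factor that corrects for the make-up of each library. The 8 enterocyte markers, digestive enzymes mainly, had counts in all 7 libraries. They summed to 47100 to 53300 CPM in batch 1. In batch 2 that sum was 28300 CPM at 10% oxygen, 27100 CPM at 20% and 16700 CPM at 40%. The sum follows its most abundant genes, such as betaTry (16300 to 17700 CPM in batch 1), and not the whole list. By the test described below, in the 10% and 20% libraries, 5 of the 8 were lower in batch 2 and 1 higher (beside 26.9% and 28.7% of all genes). The higher gene, mex1, had 113 to 141 CPM in batch 1 and 382 to 590 CPM in batch 2. Muscle markers (8 genes) summed to 449 to 716 CPM in batch 1 and 7510 to 9180 CPM in batch 2, and tracheal markers (6 genes) to 16.5 to 21.0 CPM against 157 to 186 CPM. In bulk tissue, fewer cells of a type and less RNA per cell cannot be told apart. Mean fragment length was 272.2 to 279.7 bases in batch 1 and 244.3, 253.7 and 229.3 bases in batch 2, in the same order.

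Together the 35 genes took 0.268% to 0.278% of the counts outside the mitochondrial genome in batch 1. In batch 2 they took 0.281% at 10% oxygen, 0.339% at 20% and 0.276% at 40%. On TPM, which divides by transcript length, their share was 0.307% to 0.321% in batch 1. In batch 2 that share was 0.248%, 0.313% and 0.199% at 10%, 20% and 40% oxygen. Between 31 and 34 members had at least 3 counts in a library, the number taken as the detection floor. That floor equals 0.0827 to 0.0923 TMM-scaled CPM in batch 1 and 0.257 to 0.332 in batch 2, and it covers counting error only. The TMM factors were 1.51 to 1.63 in batch 1 and 0.457 to 0.601 in batch 2.

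To compare genes with each other, levels are given as TPM, which divides by transcript length, rescaled so that transcripts outside the mitochondrial genome sum to 1 M. At 20% oxygen GstD1, the delta enzyme best known for dehydrochlorinating DDT, was the most abundant member at 625 ± 52.5 rescaled TPM (SD, n = 3), followed by GstE12 at 464 ± 9.52. The gap between these 2 was larger than their SDs, and so was the gap to the next group. GstE6 (271 ± 44.8), GstT4 (241 ± 38.5), GstO3 (235 ± 42.6) and GstE3 (219 ± 28.5) did not differ from each other beyond their spread. GstE9 (143 ± 20.7) and GstO2 (134 ± 25.6) formed the next step, again within each other's spread.

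Below these, 18 members had means from 6.56 (GstZ1) to 96.7 rescaled TPM (GstE7), and in that range neighbouring genes overlapped. GstE11, at 81.1 ± 102, had an SD larger than its mean because its level in replicate 3 was far above that in replicates 1 and 2. The lowest members at 20% oxygen were GstD3 at 3.64, GstD4 at 1.03 and 7 genes between 0.0843 and 0.512: GstE2, GstD2, GstZ2, GstE4, GstD6, GstE14 and GstD11. GstE14, known as Noppera-bo, acts in ecdysteroid production, and it had 1 to 4 counts in every library.

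**Figure D1:**
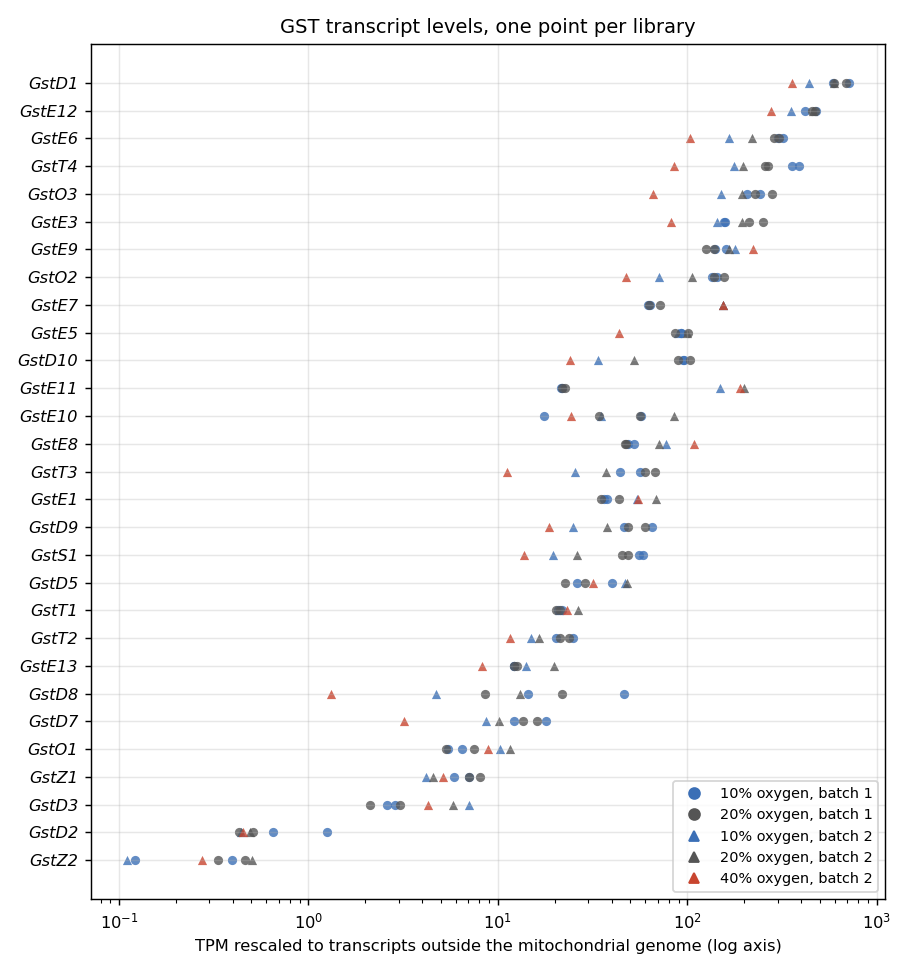
TPM rescaled to transcripts outside the mitochondrial genome (log axis) for the 29 members with at least 3 counts in every library, 1 point per library; colour gives oxygen, circles batch 1 and triangles batch 2. Levels span from under 1 (GstZ2, GstD2) to the levels of GstD1 and GstE12, and the batch 2 points of GstE11 and GstE7 lie well to the right of their batch 1 points.

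GstD1 and GstE12 ranked first and second in every library, and the order below them varied. In the 40% library GstE9 (223 rescaled TPM), GstE11 (190) and GstE7 (155) came next, ahead of GstE6 (104), GstT4 (85.5) and GstO3 (65.9). The 5 members that were highest at 20% oxygen, GstD1, GstE12, GstE6, GstT4 and GstO3, held 61.0% to 63.9% of all GST TPM in batch 1, 51.9% and 53.4% at 10% and 20% oxygen in batch 2, and 44.8% in the 40% library. Epsilon genes made up 42.1% to 47.0% of GST TPM in batch 1, and in batch 2 they made up 57.1% at 10% oxygen, 55.7% at 20% and 64.0% at 40%. Theta genes made up 11.6% to 15.5% in batch 1, 9.64% and 8.85% in batch 2, and 6.62% at 40%, and omega genes 11.1% to 13.8%, 9.39% and 10.0%, and 6.16%. The 40% library thus had the highest epsilon share and the lowest theta and omega shares of the 7 libraries. Delta genes kept 22.3% to 30.8% throughout, most of it GstD1, which was 72.6% to 81.0% of the delta TPM.

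**Figure D2:**
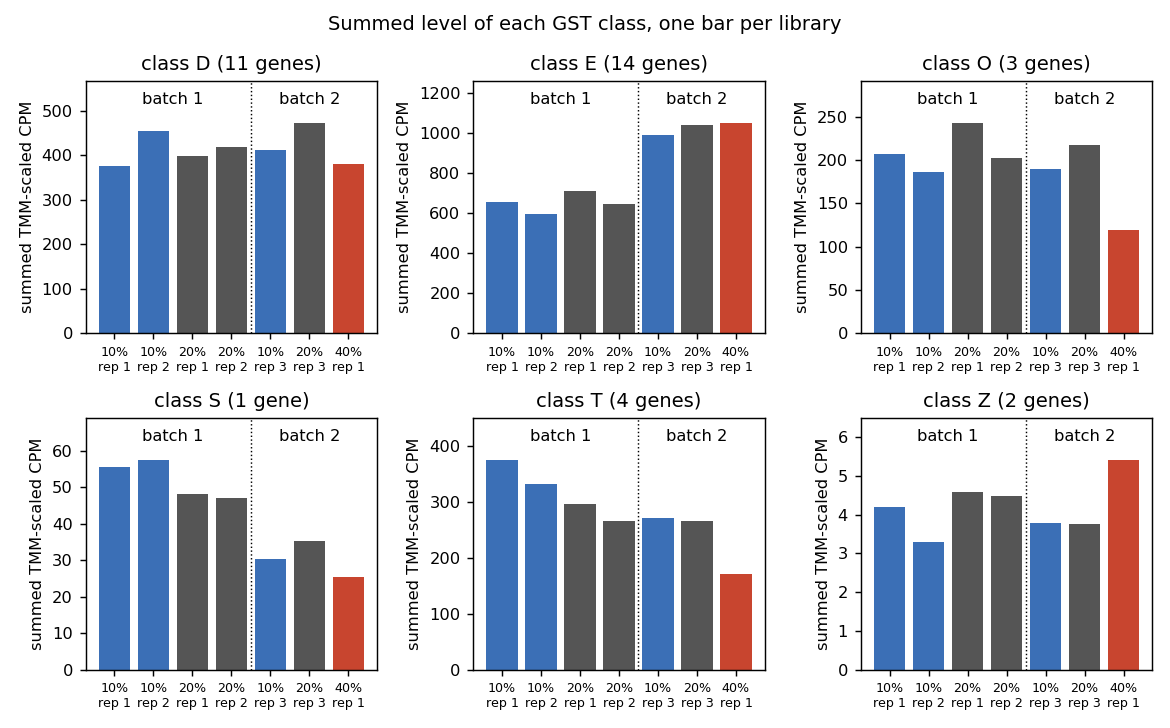
Summed TMM-scaled CPM of each GST class, 1 bar per library, coloured by oxygen (blue 10%, grey 20%, red 40%), with batch 1 left of the dotted line and batch 2 right of it. In the 40% library the omega and theta sums are the lowest of the 7, at 119 and 171 CPM, while the epsilon sum stands at 1050 CPM beside 990 and 1040 CPM for its batch mates.

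Comparisons between libraries below use the same TMM-scaled CPM, and fold changes are from edgeR's quasi-likelihood test with batch in the model. A gene was called at a Benjamini-Hochberg adjusted p below 0.05 over all genes tested.

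At 10% against 20% oxygen the GST genes showed no called change. Of the 27 members that passed the filter on low counts, 0 were called, as were 0 of 9278 genes in all (0.0%). At an unadjusted p below 0.05 there were 4 GST genes (14.8%) beside 584 genes in all (6.29%). DESeq2 called 124 genes (1.34%) and limma voom 1, and neither called a GST. The median log2 fold change of the members was -0.07, with 0.01 for all genes, and single members ranged from -0.55 (GstE10) to 0.34 (GstD8). The 8 members too low for this test were GstD2, GstD4, GstD6, GstD11, GstE2, GstE4, GstE14 and GstZ2.

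The members with the smallest p values in this comparison were the epsilon gene GstE3 and the theta genes GstT3 and GstT4. GstE3 stood at 65.1 and 63.7 CPM at 10% and at 111 and 84.9 CPM at 20% in batch 1, and at 91.6 and 105 CPM in batch 2. Each 10% library lay below the 20% libraries of its batch, and the log2 difference was -0.47 (SE 0.14, adjusted p = 0.776). GstT3 followed the same order, at 32.0 and 23.3 CPM against 36.3 and 36.6 CPM in batch 1 and 22.3 against 27.9 CPM in batch 2, with a log2 difference of -0.38 (SE 0.13, adjusted p = 0.776). GstT4 lay the other way, at 319 and 283 CPM against 234 and 204 CPM in batch 1 and 217 against 206 CPM in batch 2, with 0.33 (SE 0.12, adjusted p = 0.776). These 2 theta genes on X thus had opposite orders of the oxygen groups within the same libraries, and none of these differences passed the test.

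Every 10% library was above the 20% libraries of its batch for 2 members, GstE9 and GstT4 (7.41%, beside 11.8% of all genes), and below them for 5, GstD10, GstE1, GstE3, GstO2 and GstT3 (18.5%, beside 8.84%). Summed within batch 1, class T stood at 1.26 times its 20% level and class O at 0.881 times; within batch 2 the ratios were 1.02 and 0.874. All 35 genes together came to 1.01 times in batch 1 and 0.932 times in batch 2. On rescaled TPM the batch 2 ratios were 0.862 for class T, 0.742 for class O and 0.792 for all 35 genes. A test of whether the 10% to 20% difference changed with batch called 0 of 27 members and 0 of 9278 genes (0.0%), with 2 and 973 at an unadjusted p below 0.05. The 2 were GstS1 (log2 difference of -0.47, SE 0.12, adjusted p = 0.421) and GstD10 (-0.34, SE 0.12, adjusted p = 0.473).

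**Figure D3:**
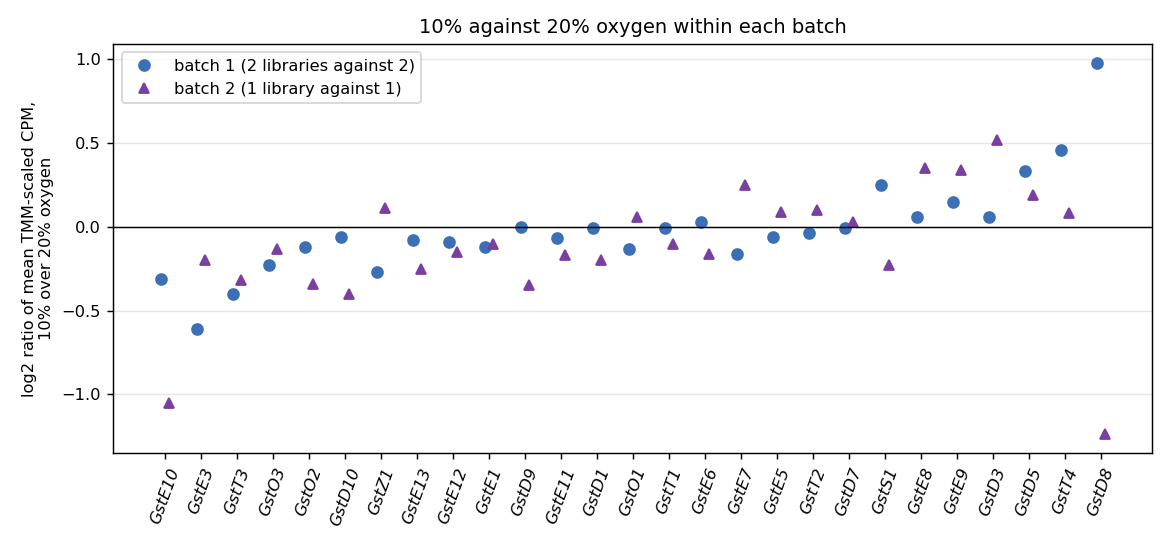
Log2 ratio of mean TMM-scaled CPM at 10% over 20% oxygen for the 27 members tested, ordered by the fitted difference; circles are batch 1 (2 libraries against 2) and triangles batch 2 (1 against 1, no error can be given). Most points lie within 0.5 of 0, and GstD8 has points of opposite sign in the batches.

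At 40% against 20% oxygen the epsilon genes GstE8 and GstE9, next to each other at the end of the 2R cluster, were higher, and no other member passed the test. That is 2 of 31 members tested (6.45%), both higher; among all 10068 genes 319 were called (3.17%), 142 higher (1.41%) and 177 lower (1.76%). The 40% group is 1 library, so its spread was taken to be that of the other groups. The 40% library is also the one with the most mitochondrial RNA and the shortest fragments. Both genes were called with mitochondrial genes left out of the table, and with a trend over gene length removed their log2 fold changes were 0.98 (adjusted p = 0.06) and 0.83 (adjusted p = 0.0525).

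GstE8 (2R, 18407834 to 18408955, plus strand) stood at 22.2 and 19.7 CPM at 10% and 21.4 and 18.9 CPM at 20% in batch 1, and at 50.2, 39.4 and 84.7 CPM at 10%, 20% and 40% in batch 2. The 40% library was above all 6 others, and the batch 2 libraries were above those of batch 1. The log2 fold change was 1.00 (SE 0.16, adjusted p = 0.0497), and 1.1 within batch 2 alone. GstE9 (2R, 18409048 to 18409835, plus strand) stood at 62.3 and 68.9 CPM at 10% and 59.6 and 58.6 CPM at 20% in batch 1, and at 122, 95.9 and 181 CPM in batch 2. It had the same order of libraries as GstE8 within batch 2, with a log2 fold change of 0.85 (SE 0.13, adjusted p = 0.0471) and 0.91 within batch 2 alone.

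Both calls sat at the threshold: leaving out any 1 of the 6 libraries at 10% and 20% ended them, with adjusted p from 0.0628 to 0.148 for GstE8 and from 0.0577 to 0.126 for GstE9, and log2 fold changes of 0.81 to 1.1 and 0.72 to 0.92. Most calls of other genes ended in those fits too: 0 to 69 genes were called in all, beside 319 with every library in. On the per-length scale the 40% library was also above all 6 others for both genes, at 109 rescaled TPM beside 47.1 to 77.0 for GstE8 and at 223 beside 125 to 178 for GstE9. The overlapping gene imd, an adaptor of the immune pathway named after it, had 8.73 to 13.2 CPM in all libraries and a log2 fold change of -0.14 (SE 0.17, adjusted p = 0.702).

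The neighbours of GstE8 and GstE9 in the cluster did not move as a block. GstE7, directly before GstE8, had 27.0 and 25.4 CPM at 10% and 32.9 and 25.7 CPM at 20% in batch 1, and 102, 85.7 and 120 CPM at 10%, 20% and 40% in batch 2; the log2 difference between 40% and 20% was 0.35 (SE 0.22, adjusted p = 0.453). GstE6, before it, ran the other way, with 125 and 129 CPM, then 127 and 121 CPM, and in batch 2 106, 119 and 78.7 CPM, and a difference of -0.53 (SE 0.12, adjusted p = 0.0847). So the 40% library was the highest of all for GstE7 and the lowest of all for GstE6.

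GstE5 had 36.9 and 35.8 CPM at 10%, 43.1 and 32.8 CPM at 20%, and 55.0, 51.6 and 31.8 CPM in batch 2, a difference of -0.75 (SE 0.20, adjusted p = 0.116). GstE3, at 62.2 CPM in the 40% library, differed by -0.90 (SE 0.24, adjusted p = 0.117). GstE1, at the other end of the cluster, had 17.5 CPM in both 10% libraries and 18.0 and 20.1 CPM at 20% in batch 1, and 40.2, 43.1 and 48.0 CPM in batch 2, a difference of 0.15 (SE 0.11, adjusted p = 0.512). Libraries of GstE1 thus separated by batch and hardly by oxygen. GstE10, on the opposite strand, ranged from 9.61 to 62.3 CPM over the libraries at 10% and 20% and was at 25.3 CPM at 40%. GstE4 had 0 to 4 counts and GstE2 2 to 11 counts in any library.

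In the delta cluster none of the 9 tested members was called. GstD1 had 281, 331 and 321 CPM at 10%, 303, 313 and 369 CPM at 20% and 309 CPM at 40%, replicates in order, and a difference of -0.19 (SE 0.15, adjusted p = 0.544). Its 40% value lay inside the range of the other libraries on CPM and was the lowest of the 7 on rescaled TPM (358 beside 439 to 718). GstD10 had 47.8 and 46.9 CPM at 10% and 48.5 and 50.1 CPM at 20% in batch 1, then 25.9, 34.2 and 21.8 CPM in batch 2, with -0.54 (SE 0.15, adjusted p = 0.13). GstD9 had 20.1 and 27.3 CPM, 22.5 and 24.9 CPM, and 16.7, 21.3 and 14.8 CPM in the same order, with -0.41 (SE 0.25, adjusted p = 0.432). GstD7 had the smallest p of the delta genes: it stood at 5.12 to 7.23 CPM in the other libraries and at 2.43 CPM at 40%, with -1.19 (SE 0.29, adjusted p = 0.0982). GstD8 had 3.34 to 20.7 CPM in the other libraries and 1.11 CPM at 40%, with -2.24 (SE 1.35, adjusted p = 0.43). For GstD7, GstD8, GstD9 and GstD10 the 40% library was the lowest of the 7. GstD4 had 4 to 23 counts in the other libraries and 0 at 40%, where up to 3 counts (0.332 CPM) could be missed; its level in the 20% library of batch 2 was 0.343 CPM.

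**Figure D4:**
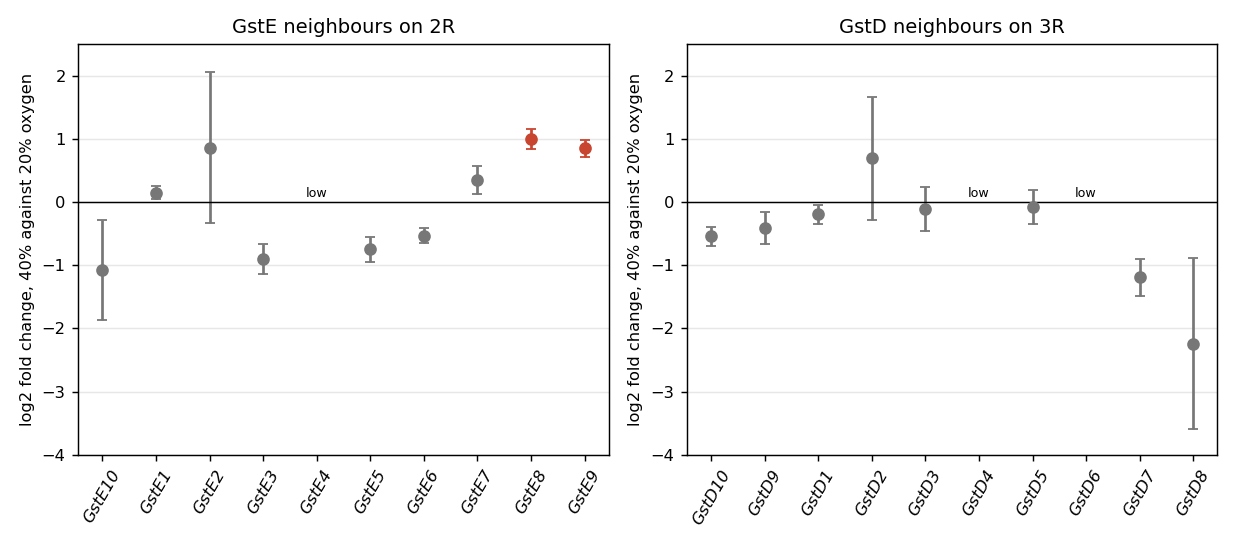
Log2 fold change at 40% against 20% oxygen along the epsilon cluster (left) and the delta cluster (right), genes in chromosomal order, bars ± SE from edgeR's fit; red marks adjusted p below 0.05 and "low" genes under 3 counts in a compared batch 2 library or not tested. Estimates in the epsilon cluster have both signs, below 0 for GstE10, GstE3, GstE5 and GstE6 and above 0 for the others drawn, and GstE8 and GstE9 at its end are the called genes.

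Among the other classes GstT3 came nearest to the threshold. Its 40% library had 11.3 CPM, below all 6 others (22.3 to 36.6 CPM), and the log2 difference from 20% was -1.33 (SE 0.23, adjusted p = 0.0541). GstT3 passed the test in 7 of 17 alternative analyses, with values from -1.58 to -1.26. Every fit on TPM is among those 7, and there the median of all genes was itself -0.32 or -0.46. Values from the TPM fits are centred on that median, but their tests are not. GstT4 was at 123 CPM in the 40% library, again the lowest of all, with -0.62 (SE 0.19, adjusted p = 0.156). GstT1 had 13.1 and 13.2 CPM at 10%, 14.3 and 12.3 CPM at 20%, and 20.0, 21.4 and 25.9 CPM in batch 2, with 0.30 (SE 0.13, adjusted p = 0.287). GstT1 and its neighbour GstT2, which stayed at 10.8 to 12.8 CPM, did not share the low value at 40%.

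The omega genes split in the same way. GstO3 had 128 and 105 CPM at 10% and 157 and 115 CPM at 20% in batch 1, and 121, 133 and 62.2 CPM in batch 2, with a 40% to 20% difference of -1.12 (SE 0.25, adjusted p = 0.0808). GstO2 had 75.7 and 77.5 CPM, then 82.4 and 83.5 CPM, and 60.2, 76.3 and 47.4 CPM in batch 2, with -0.61 (SE 0.12, adjusted p = 0.0694). Both were lowest at 40%. GstO1 had 3.80 and 3.12 CPM at 10%, 3.35 and 4.24 CPM at 20%, and 9.21, 8.83 and 9.29 CPM in batch 2, with 0.01 (SE 0.25, adjusted p = 1.0).

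GstS1, the sigma enzyme that conjugates 4-hydroxynonenal and is abundant in flight muscle, had 55.7 and 57.6 CPM at 10%, 48.2 and 47.2 CPM at 20%, and 30.3, 35.4 and 25.4 CPM in batch 2. Its 40% to 20% difference was -0.33 (SE 0.19, adjusted p = 0.402). The zeta gene GstZ1 had 3.89, 3.15 and 3.52 CPM at 10%, 4.18, 4.27 and 3.26 CPM at 20% and 5.09 CPM at 40%, with 0.51 (SE 0.26, adjusted p = 0.349), and GstZ2 3 to 13 counts in any library. GstS1 was at its lowest and GstZ1 at its highest in the 40% library.

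Over all 31 tested members, 14 had an unadjusted p below 0.05 (45.2%, beside 21.0% of all genes), 11 of them lower (35.5%, beside 11.4%) and 3 higher (9.68%, beside 9.64%). The median log2 fold change was -0.33, or -0.25 with GstD4 at its bound, beside -0.03 for all genes. The 40% library was below all 6 others for 13 members (41.9%, beside 25.6% of genes) and above all for 9 (29.0%, beside 24.5%). On rescaled TPM these counts were 17 (54.8%, beside 48.8%) and 3 (9.68%, beside 9.28%), the latter being GstE2, GstE8 and GstE9. That scale lowered the 40% library for genes in general, as the shares of all genes show. On it GstE1, GstE7, GstE11, GstO1, GstT1 and GstZ1 lost their place above all others, and GstD1, GstE12, GstE13 and GstT2 came to lie below all others. DESeq2 called 8 members (3 higher and 5 lower, beside 9.65% of all genes), adding GstE11 on the higher side and GstT3, GstO3, GstE3, GstO2 and GstE6 on the lower. On log2(TPM + 1), where the median of all genes was -0.32, 1 member was called higher and 11 lower, beside 1426 of 7727 genes called in all.

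At 40% against 10% oxygen, a comparison that uses the same 40% library, 0 of 31 members were called, beside 117 of 10068 genes (1.16%). Unadjusted p was below 0.05 for 13 members (41.9%, beside 19.7%), and DESeq2 called 7 (22.6%, beside 8.09%). The smallest p values were those of GstE8 (log2 difference of 0.85, SE 0.16, adjusted p = 0.0785), GstE9 (0.63, SE 0.12, adjusted p = 0.082) and GstT4 (-0.96, SE 0.20, adjusted p = 0.0876). GstT3 had -0.96 (SE 0.22, adjusted p = 0.109) and GstO3 -0.93 (SE 0.24, adjusted p = 0.13). Within batch 2 the CPM sum of class O was 0.546 times that at 20% and 0.625 times that at 10%, the sum of class T 0.642 and 0.63 times, and the sum of class E 1.01 and 1.06 times. On rescaled TPM these ratios were 0.391 and 0.526 for class O, 0.475 and 0.551 for class T, and 0.73 and 0.898 for class E. All 35 genes together came to 0.86 and 0.923 times on CPM and to 0.635 and 0.802 times on rescaled TPM.

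**Figure D5:**
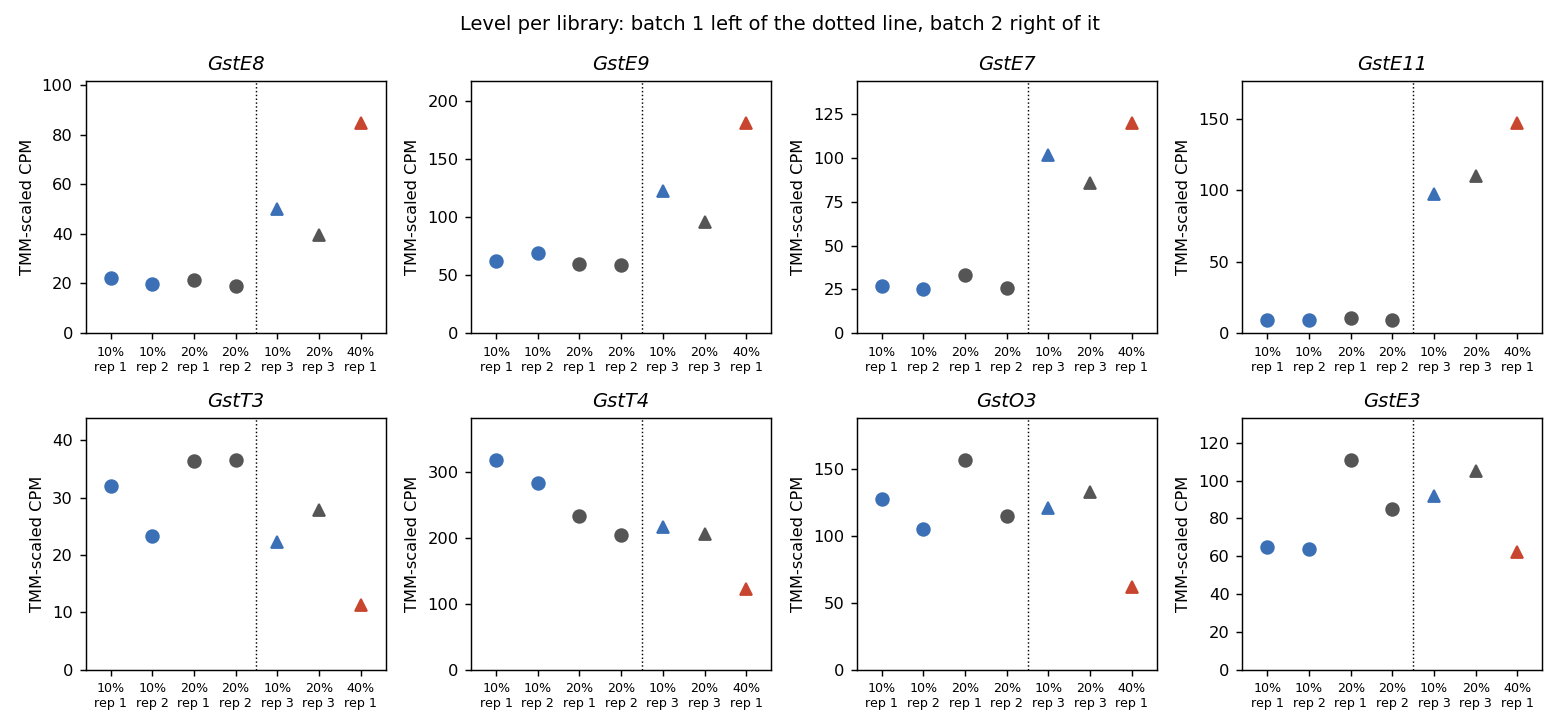
TMM-scaled CPM per library for 8 members (linear axes from 0), batch 1 left of the dotted line and batch 2 right of it, coloured by oxygen (blue 10%, grey 20%, red 40%). GstE8, GstE9, GstE7 and GstE11 are highest in the red 40% library, and GstT3, GstT4, GstO3 and GstE3 are lowest there. GstE8, GstE9, GstE7 and GstE11 also separate by batch, GstE11 most widely.

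More members were called between batches than between oxygen groups. Comparing batch 2 with batch 1 within the 10% and 20% libraries, 14 of 27 members were called (51.9%, beside 55.6% of all genes), 12 higher (44.4%, beside 28.7%) and 2 lower (7.41%, beside 26.9%). That balance turned with the scale. With a trend over gene length removed 9 were higher and 11 lower, beside 4257 of 9278 genes called in all. On log2(TPM + 1), where the median of all genes was -1.11, 2 were higher and 20 lower, beside 6836 of 7801 genes. GstE11, an epsilon gene outside the main cluster (2R, 18503608 to 18505025), had 9.36 and 9.02 CPM at 10% and 10.3 and 8.95 CPM at 20% in batch 1, and 97.5, 110 and 147 CPM in batch 2. The batches did not overlap, and the log2 difference was 3.48 (SE 0.08, adjusted p = 3.41e-05). At 40% against 20% its difference was 0.45 (SE 0.13, adjusted p = 0.129).

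Also higher in batch 2 were GstE7 (1.78, SE 0.14), GstE1 (1.21, SE 0.07), GstE8 (1.14, SE 0.11) and GstE9 (0.81, SE 0.08), each with adjusted p of 0.000959 or less. GstD3 was 1.80 higher (SE 0.22), going from 1.18 and 1.02 CPM at 10% and 0.923 and 1.18 CPM at 20% in batch 1 to 4.42, 3.09 and 3.21 CPM in batch 2. GstD5, its neighbour but for GstD4, was 1.22 higher (SE 0.17), going from 12.8 and 19.1 CPM and 11.8 and 13.6 CPM to 35.0, 30.7 and 28.2 CPM. For both genes every batch 2 library was above every batch 1 library, and the 40% library lay between its batch mates for GstD3 and below both for GstD5.

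GstE13 was 0.95 higher (SE 0.11), at 6.22 and 6.07 CPM, then 6.89 and 6.09 CPM, against 11, 13.1 and 7.52 CPM in batch 2. GstE12, the most abundant epsilon gene, was 0.33 higher (SE 0.09, adjusted p = 0.0319), with 252 and 213 CPM, then 257 and 240 CPM, against 283, 314 and 262 CPM. The remaining higher calls were GstO1 (1.33, SE 0.16), GstT1 (0.67, SE 0.09) and GstE5 (0.54, SE 0.13). The direction of GstE12 reversed on log2(TPM + 1) (-0.02 after centring on all genes), and those of GstE12 and GstE5 when a trend over gene length was removed (-0.12 and -0.06). GstD10 fell by 0.68 (SE 0.10, adjusted p = 0.00345) and GstS1 by 0.64 (SE 0.12, adjusted p = 0.00909).

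Markers of some other tissues moved with batch in the same libraries. All 8 muscle genes and all 6 tracheal genes were called higher in batch 2, with medians of 4.05 and 3.77 log2 units. So were 3 of 4 tested fat body genes (sums of 94.8 to 291 CPM in batch 1 and 531 to 899 CPM in batch 2) and 2 of 4 haemocyte genes. Other lists did not follow. Of 4 tested ovary genes 0 were higher and 1 lower, with sums of 11.9 to 69.2 CPM in batch 1 and 7.3 to 10.3 CPM in batch 2. Of 7 tubule and hindgut genes 2 were higher and 1 lower. Among all genes 28.7% were higher and 26.9% lower. The part of these tissues in the GST differences was not tested. The called members other than GstE11 differed by less than 2 log2 units.

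The libraries also differed within a group. In replicate 2 at 10% oxygen GstE10 stood at 9.61 CPM, beside 21.3 to 32.3 CPM in the other libraries of batch 1, and GstD8 at 20.7 CPM beside 4.24 to 9.67 CPM. The urate oxidase gene Uro, a marker of the Malpighian tubule, stood in the same library at 8.22 CPM, beside 68.0 to 126 CPM, and salt, of the same list of 7 tubule and hindgut markers, at 2.30 CPM beside 49.0 to 72.9 CPM. These 2 genes set the sum of the list, 184 CPM beside 301 to 367 CPM, while its members Prestin (89.1 CPM) and Drip (48.1 CPM) were at their highest of batch 1 there. The sums of ovary and fat body markers were low in that library as well, at 11.9 CPM beside 24.9 to 69.2 CPM and 94.8 CPM beside 202 to 291 CPM. The ovary gene osk stood at 0.142 CPM beside 8.72 to 40.5 CPM, and the fat body gene Yp1 at 78.0 CPM beside 188 to 246 CPM. Other markers followed less far or not at all. The ovary gene gcl, most of the ovary sum there, was slightly lower, at 11.3 CPM beside 12.4 to 13.4 CPM. The fat body gene apolpp, at 15.7 CPM, lay within the 11.7 to 38.9 CPM of the others. GstT3 transcripts changed their shares there too: its transcript of 978 bases had 20.4 estimated reads, beside 325.7 to 420.5 in the other batch 1 libraries, and its transcript of 875 bases took 89.5% of the gene's reads beside 57.2% to 63.8%. The part of these other tissues in the GST values was not tested.

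Among 13 members with several annotated transcripts, the same transcript led in all 7 libraries for 10. In GstD11, which had reads in 4 libraries, 1 transcript held 100% of them in each, and the leading transcript differed between libraries for GstT3 and GstZ2. The leading transcript of GstD1 held 99.2% to 99.8% of its reads and that of GstE8 96.3% to 99.4%. GstT3 in replicate 3 at 20% oxygen was led by the 978-base transcript, with 207.5 reads against 106.7 for the 875-base transcript.

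Genes that make, use, export or regulate glutathione and its conjugates gave a wider frame, together with 6 reference genes of the response to foreign compounds, which are cytochrome P450 genes and the glycosyltransferase gene Ugt35B1. Of these 39 listed genes 36 were tested. At 10% against 20% oxygen 0 were called (0.0% of all genes). At 40% against 20%, 1 was higher and 2 lower (beside 1.41% and 1.76% of all genes).

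The higher gene was Hr96, a nuclear receptor that controls xenobiotic and lipid genes, at 22.5 and 23.5 CPM at 10%, 26.8 and 24.1 CPM at 20%, and 14.9, 11.1 and 41.5 CPM in batch 2, a log2 difference of 1.69 (SE 0.21, adjusted p = 0.0382). The 40% library was above all others. Keap1, the inhibitor of CncC, had 24.2 and 24.6 CPM, then 30.2 and 29.9 CPM, and 8.58, 9.35 and 4.98 CPM in batch 2, a difference of -0.97 (SE 0.12, adjusted p = 0.0388). Trxr1, a thioredoxin reductase that in flies also keeps glutathione reduced, had 277 CPM in both 10% libraries and 298 and 311 CPM at 20% in batch 1, and 152, 184 and 111 CPM in batch 2, a difference of -0.68 (SE 0.11, adjusted p = 0.0484). For Keap1 and Trxr1 the 40% library was the lowest of all. At 40% against 10% oxygen Hr96 alone of the list was called (1.66, SE 0.21, adjusted p = 0.0455). With replicate 1 at 10% oxygen left out, 0 genes in all were called in either comparison, so the calls of Hr96, Keap1 and Trxr1 ended there.

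The gene encoding CncC, cnc, had 103, 103 and 125 CPM at 10%, 20% and 40% in batch 2 and 167 to 208 CPM in batch 1, with a 40% to 20% difference of 0.34 (SE 0.13, adjusted p = 0.234). The catalytic and modifier subunits of glutamate-cysteine ligase, Gclc and Gclm, which start glutathione synthesis, had differences of -0.39 (SE 0.15, adjusted p = 0.232) and -0.04 (SE 0.12, adjusted p = 0.906). Of 5 tested genes on the list of other GST relatives, microsomal Mgstl and eEF1gamma among them, none was called in an oxygen comparison. Between batches 9 of the 36 were higher and 13 lower (beside 28.7% and 26.9% of all genes).

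The enterocyte markers, read in the same comparison, gave 0 of 8 higher and 2 lower at 40% against 20% oxygen, Jon25Bi (-2.85, SE 0.28, adjusted p = 0.0331) and Npc2d (-2.94, SE 0.12, adjusted p = 0.00527), with a median of -0.56. The list did not move one way: mex1 (590 CPM, difference of 0.67, SE 0.14, adjusted p = 0.0752) and nub (65.9 CPM, 0.59, SE 0.17, adjusted p = 0.141) were at their highest of the 7 libraries at 40%, and Mal-A1 had a difference of 0.71 (SE 0.37, adjusted p = 0.363). The calls of Jon25Bi and Npc2d ended as well with replicate 1 at 10% oxygen left out, where 0 genes in all were called. The part of enterocyte RNA in the GST values at 40% was not tested. The gene levels most like those of GstD1 over the 7 libraries were those of Prosalpha4 (Pearson r = 0.95 on log2 CPM), mRpS7 (0.936), Prosalpha6 (0.932), CG9921 (0.86) and nclb (0.857), among 4757 genes with a mean of at least 10 CPM; the libraries share their batch, and the values are a description.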

How the data were processed

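The authors deposited, per the file headers, transcript tables with expected counts (estimated reads per transcript), TPM and effective length for 7 midgut libraries, and a transcript-to-gene table. The submitters' processing notes name STAR 2.7.11b and Salmon 1.10.3; no source used here gives their settings or the genome build. All 41539 transcripts have the lengths of Ensembl release 115 (BDGP6.54), whose coordinates are used. Counts were added up within genes and rounded to whole numbers. edgeR 4.0.16 (R 4.3.3; TMM, filterByExpr, quasi-likelihood test, batch as covariate) was fitted on all genes: 6 libraries for 10% against 20% oxygen and batch, 7 for 40%. After these fits it was also run on counts simulated from the means and dispersions of these data. SE is that implied by the test statistic. DESeq2 1.42.0, limma 3.58.1 (voom, and log2(TPM + 1) or log2(TPM + 0.1)) and other filters, scalings and left-out libraries were alternatives. Every pair of libraries differed beyond sampling noise (lowest chi-square per degree of freedom 35.1). Same-numbered libraries deviated together (r = 0.409, 0.412 and 0.708), but so did differently numbered libraries of batch 1 (r = 0.408 and 0.493): the pairing is that of batch, which the labels give to number 3, and numbers 1 and 2 are not told apart. Values in every library are given for members called in any comparison, for the 3 most abundant of each class and for the 3 of smallest p in each comparison. GstZ2, which that rule covers, is given only by its range of counts. GstE10, GstD7, GstD8, GstD4, GstE2, GstE4, GstE14, GstT2, imd, Uro, salt, Prestin, Drip, osk, gcl, Yp1, apolpp, mex1, nub, betaTry, Mal-A1, cnc, Gclc, Gclm, Mgstl and eEF1gamma fall outside that rule and were described after their values were seen. The members and gene lists were chosen with earlier results of these data known. The markers Dl and nos were not found under those names.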

Additional observations from a re-analysis of the deposited data

How the results depend on the processing

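At 10% against 20% oxygen 0 members were called under every alternative run, the fit with a replicate block (0) and that on batch 1 alone included; for 40% no replicate block could be fitted, since its 1 library shares no number with batch 2. The 2 calls at 40% against 20% became 8 with DESeq2, 0 with DESeq2 size factors in edgeR, 1 with limma voom, 12 on log2(TPM + 1) and 12 on log2(TPM + 0.1) (1 higher and 11 lower in both), 7 without a filter on TPM (all lower), 0 without batch in the model, 0 with the trend over gene length removed (an alternative added after seeing the data), and 0 to 0 when each library was left out. Without mitochondrial genes, or without a count filter, 3 were called (2 higher and 1 lower), and with length offsets 2 (1 and 1). Of all genes 319 of 10068 were called in the main fit, 972 with DESeq2, 230 with DESeq2 size factors and 237 with limma voom. On the TPM scales 1426 and 2120 of 7727 were called, and 1069 of 13905 without a filter. With no batch term 1 gene was called, with the length trend removed 164, and with a library left out 0 to 69. Without mitochondrial genes 275 of 10364 were called, without a count filter 314 of 13867, and with length offsets 290. The 0 calls at 40% against 10% became 7 with DESeq2, 9 on log2(TPM + 1), 12 on log2(TPM + 0.1) and 7 without a filter. Of all genes 815 of 10068, 1407 and 2127 of 7727, and 1031 of 13905 were called in the same order, beside 117 in the main fit. Between batches the 14 calls became 22 and 22 on the TPM scales (2 higher and 20 lower in both), 20 with the length trend removed (9 and 11), and 12 to 15 with a library left out. Of all genes 5157 of 9278 were called between batches in the main fit, and 6836 and 6838 of 7801 on the TPM scales. With the length trend removed 4257 of 9278 were called, and with a batch 1 library left out 4569 to 4839. With replicate 3 at 10% oxygen left out 4068 of 9524 were called, and with replicate 3 at 20% left out 4136 of 9544. The cause of these changes was not tested. TPM carries a shift of all genes, with medians of -0.32 and -0.46 at 40% and -1.11 and -1.42 between batches for pseudocounts of 1 and 0.1; calls there are on unshifted values. After centring, GstE12 between batches was at -0.02 with and without a filter, and with the length trend removed at -0.12, GstE5 at -0.06; no other member followed through the alternatives reversed. The 1 library at 40% and 5.73 M counts outside the mitochondrial genome limit all statements on 40% oxygen.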
